A study of Homo sapiens with 14 samples.

Results

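The 9 MCM genes, MCM2 to MCM10, were followed in A549 and H1792 lung adenocarcinoma cells treated with AMG900, an inhibitor of all aurora kinases. They were picked by gene symbol, and all 9 are among the 26732 genes listed for both lines. The lines, each grown in its own medium, were given 0.1 µM AMG900, or its solvent DMSO as the control, and RNA was collected 48 h later. There were 4 DMSO and 4 AMG900 libraries of A549 and 3 of each of H1792, although the sample labels speak of 3 replicates per treatment. The labels do not say whether replicates were seeded on separate occasions, so p-values measure the spread between these dishes of 1 line. Each group is a single established line grown in culture, with no other genetic change named in the labels.

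MCM2, MCM3, MCM4, MCM5, MCM6 and MCM7 encode the subunits of a ring-shaped helicase that is loaded onto replication origins in G1 phase and unwinds DNA in S phase. MCM10 is a separate protein that binds the loaded ring and is needed for the start of unwinding. MCM8 and MCM9 form a different helicase that acts in homologous recombination. Several MCM genes are known targets of E2F transcription factors, some of which drive the genes used for entry into S phase. MCM proteins serve as markers of cycling cells in tumour pathology.

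Promoter sequence is shown for 4 subunits of the ring and for MCM10, the gene with the largest change in A549. Promoters were searched for E2F letters, since several MCM genes are known E2F targets. The RefSeq promoter windows (GRCh38.p14) hold 9 windows for 7 of the 9 genes, 3 of them for MCM7, and all but MCM4 and MCM5 were matched. Each window runs from 200 bases before the start site to 13 bases after the start, 213 bases in all. The first windows are MCM2 at chr3:127598211-127598423 on the plus strand, MCM3 at chr6:52284730-52284942 on the minus strand, MCM6 at chr2:135876431-135876643 on the minus strand, MCM7 at chr7:100101385-100101597 on the minus strand and MCM10 at chr10:13161358-13161570 on the plus strand. Capitals mark matches, on either strand, to 4 forms of the E2F core. The form TTCCCGC was searched first, and the form TTCGCGC followed. The remaining forms were TTGCCGC as well as the form TTGGCGC.
MCM2: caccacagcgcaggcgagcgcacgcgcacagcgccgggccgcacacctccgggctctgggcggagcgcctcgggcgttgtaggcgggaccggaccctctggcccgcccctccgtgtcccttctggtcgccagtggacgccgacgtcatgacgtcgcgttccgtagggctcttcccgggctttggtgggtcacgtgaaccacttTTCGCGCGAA
MCM3: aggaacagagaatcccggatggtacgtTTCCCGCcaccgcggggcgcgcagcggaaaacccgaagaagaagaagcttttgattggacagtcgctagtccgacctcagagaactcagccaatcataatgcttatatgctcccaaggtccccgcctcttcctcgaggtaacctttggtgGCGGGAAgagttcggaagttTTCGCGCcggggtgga
MCM6: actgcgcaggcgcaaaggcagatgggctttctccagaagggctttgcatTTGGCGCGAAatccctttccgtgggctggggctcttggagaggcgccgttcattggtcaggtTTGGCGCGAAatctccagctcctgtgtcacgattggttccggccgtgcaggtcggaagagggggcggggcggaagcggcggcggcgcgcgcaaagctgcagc
MCM7: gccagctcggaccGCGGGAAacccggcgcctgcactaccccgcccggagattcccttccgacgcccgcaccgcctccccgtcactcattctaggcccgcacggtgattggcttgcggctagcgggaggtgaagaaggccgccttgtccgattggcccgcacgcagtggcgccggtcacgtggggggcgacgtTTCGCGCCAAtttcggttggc
MCM10: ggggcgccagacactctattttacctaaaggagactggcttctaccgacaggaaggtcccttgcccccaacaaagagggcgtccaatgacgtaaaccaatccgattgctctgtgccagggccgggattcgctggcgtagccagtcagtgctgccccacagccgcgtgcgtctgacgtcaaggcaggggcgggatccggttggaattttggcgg
The E2F core letters were found in 5 of the 7 genes and in 6 of the 9 windows. There were 2 matches in MCM2, 3 in MCM3, 4 in MCM6 and 1 in MCM8. The 3 windows of MCM7 held 3, 2 and 0 matches. Matches on opposite strands overlap in MCM2, MCM6 and MCM7, so that 1 run of capitals there holds 2 of them. No match was found for MCM9 or MCM10. Both MCM2 matches lie after the start site, at bases 4 to 10 and 7 to 13. The window ends at base 13, so the MCM2 count depends on that edge. Other window edges were not tested. Among all 35116 windows of the same length, 9.76% hold at least 1 match and 1.07% hold 2 or more. The letters CCAAT, searched on both strands, were in 8 of the 9 MCM windows and in 28.9% of all windows, and in MCM7 1 of them overlaps E2F core letters. TTTGAA, the letters of the cell cycle homology region, was in 0 of the 9 and in 11% of all. These matches are a description of the letters and do not show that a factor binds there.

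Depth differed between the lines and between libraries. A549 libraries held 4254644 to 16381683 counts with DMSO and 10932815 to 18962883 with AMG900, and DMSO replicate 1 was the shallowest. H1792 libraries held 42760874 to 65617740 counts with DMSO and 51295049 to 79902934 with AMG900. Keratins were abundant in both lines (KRT8 at 421 to 4520 CPM, counts scaled to the size of the library), whereas the lung lineage genes NKX2-1, SFTPB, SFTPC and NAPSA summed to at most 1.94 CPM in any library. EPCAM was below 1 CPM in every A549 library and CDH1 reached at most 1.02 CPM in H1792. Fibroblast markers were high in H1792, at 1350 to 1580 CPM in sum with DMSO and 917 to 1000 with AMG900, mostly through COL1A2, and at 1.09 to 1.9 CPM in A549. The blood cell list was higher with AMG900 in sum, from 58.4 to 85.8 CPM to 144 to 165 in A549 and from 97.2 to 118 to 164 to 187 in H1792, nearly all of it CD68. Of its defining markers, CD3E was at 0 in every A549 library and PTPRC reached at most 0.0916 CPM there. Endothelial markers summed to at most 16.9 CPM in any library. The part of these markers in the MCM results was not tested.

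In A549 the family was lower with AMG900 throughout. All 9 MCM genes were downregulated at an FDR of 0.01 and 0 were upregulated, in a comparison in which 17.8% of the 13174 genes tested were called lower and 17.2% higher. The median log2 fold change was -2.44 over the 9 genes and -2.36 over the 6 subunits of the ring, beside -0.01 over all genes tested. In 8 of the 9 genes every AMG900 library lay below every DMSO library, which held for 22% of all genes tested, and MCM9 was the exception. In bulk RNA of this kind, fewer cells expressing a gene and less RNA per cell cannot be told apart. As a share of all counts, the 9 genes together took 0.1206% to 0.1366% of the DMSO libraries and 0.0244% to 0.02626% of the AMG900 libraries.

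**Figure D1:**
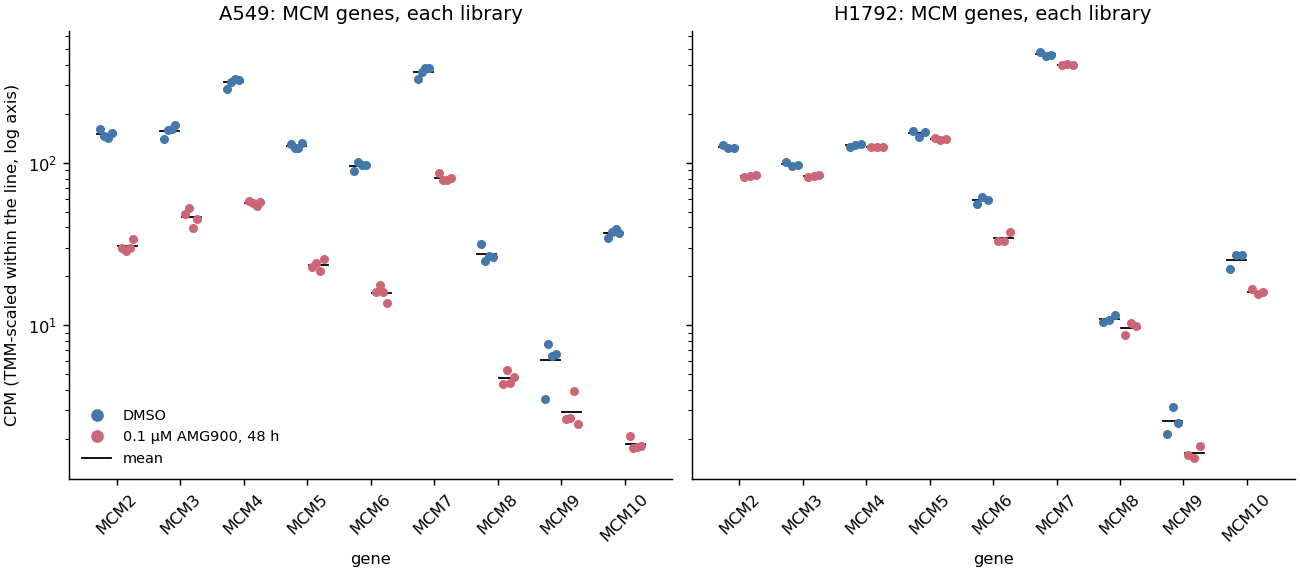
Level of each MCM gene in every library, in CPM scaled within each line on a log axis, with DMSO in blue, AMG900 in red and a bar at the mean. In A549 the AMG900 points lie below the DMSO points for every gene but MCM9, and in H1792 the gaps are smaller, with MCM4 overlapping.

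Within the ring, the estimate was lowest for MCM6 and highest for MCM3 in A549. The interval of MCM6 overlapped that of MCM4 (-2.63 to -2.32), and with the GC correction described further on MCM5 was lowest, while MCM3 was still highest. MCM6 was at 89.1, 101, 97.5 and 96.7 CPM in the 4 DMSO libraries and at 16.1, 17.6, 16.1 and 13.6 CPM in the 4 AMG900 libraries. All treated libraries were far below the controls, a 6.08-fold drop (log2 fold change -2.60, SE 0.10, adjusted p = 4.2e-11 by the edgeR quasi-likelihood test). MCM3 was at 140, 159, 162 and 171 CPM with DMSO and at 48.2, 52.5, 39.4 and 44.9 CPM with AMG900. The groups were again well apart, but the drop was 3.43-fold (-1.78, SE 0.10, adjusted p = 2.4e-09), and the 95% confidence intervals of the 2 genes, -2.81 to -2.39 for MCM6 and -1.98 to -1.57 for MCM3, did not meet.

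The other 4 subunits lay between them. MCM4 went from 312 ± 19.0 CPM (SD, n = 4) to 56.5 ± 1.89 CPM (SD, n = 4), which is -2.47 on the log2 scale (SE 0.07). MCM5 went from 128 ± 4.71 CPM (SD, n = 4) to 23.5 ± 1.71 CPM (SD, n = 4), a change of -2.44 (SE 0.08). MCM2, whose product carries a histone-binding tail, went from 150 ± 8.60 CPM (SD, n = 4) to 30.6 ± 2.31 CPM (SD, n = 4), a change of -2.29 (SE 0.08). Each of these groups was tight against the size of the change. MCM7 was at 330, 365, 383 and 382 CPM with DMSO and at 86.3, 78.6, 78.3 and 80.5 CPM with AMG900, a log2 fold change of -2.18 (SE 0.07). The share of genes tested with a lower log2 fold change ran from 1.10% for MCM6 to 2.14% for MCM3.

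MCM10, the activator of the loaded ring, had the largest change of the family. Its counts were 147 to 625 in the DMSO libraries and 22 to 33 in the AMG900 libraries. In CPM it was at 34.5, 37.7, 39.2 and 37.1 with DMSO and at 2.08, 1.76, 1.78 and 1.81 with AMG900. The 4 treated libraries were all near the same low level, a 20.1-fold drop (95% confidence interval of the log2 fold change -4.62 to -4.04), and MCM10 was number 9 from the lowest log2 fold change among the 13174 genes tested.

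MCM8 and MCM9, the recombination pair, differed from each other. MCM8 was at 31.5, 24.9, 26.7 and 26.2 CPM with DMSO and at 4.35, 5.27, 4.42 and 4.78 CPM with AMG900, a log2 fold change of -2.52 (SE 0.14), close to the ring. MCM9 was at 3.53, 7.65, 6.50 and 6.65 CPM with DMSO and at 2.65, 2.67, 3.94 and 2.46 CPM with AMG900. The lowest DMSO library, which is also the shallowest with 15 MCM9 counts, fell below AMG900 replicate 3, and the groups overlap there. MCM9 passed at -1.09 (SE 0.25, adjusted p = 0.0024), but the call was lost when the counts were corrected for the GC content of transcripts (-0.64, adjusted p = 0.046), and without DMSO replicate 2 (-0.98) or AMG900 replicate 4 (-1.01), each with an adjusted p that rounds to 0.01.

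In H1792 the response was smaller and uneven. At an FDR of 0.01, 5 MCM genes (MCM2, MCM3, MCM6, MCM7 and MCM10) were downregulated, 0 were upregulated and 4 (MCM4, MCM5, MCM8 and MCM9) did not pass, where 18.8% of the 15017 genes tested were called lower and 16.2% higher. The median log2 fold change of the 9 genes was -0.24, that of the ring -0.23, and that of all genes tested 0.01. AMG900 libraries lay below every DMSO library for 8 of the 9 genes, a pattern found in 29.6% of all genes tested, with MCM4 overlapping, while 30.1% of all genes lay above. The 9 genes took 0.1083% to 0.1098% of the counts with DMSO and 0.08681% to 0.08819% with AMG900. No MCM gene changed by as much as 2-fold.

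MCM6 and MCM2 led the ring in H1792. MCM6 was at 55.4, 61.3 and 59.3 CPM with DMSO and at 32.9, 33.0 and 37.3 CPM with AMG900, a 1.70-fold drop (log2 fold change -0.77, SE 0.07, adjusted p = 2e-05 by the edgeR test). MCM2 was at 129, 124 and 124 CPM with DMSO and at 81.7, 82.4 and 83.6 CPM with AMG900, a 1.52-fold drop (-0.60, SE 0.05, adjusted p = 1.1e-05). In both genes the treated libraries were clearly below the controls. MCM10 was at 22.1, 27.0 and 26.9 CPM with DMSO and at 16.7, 15.5 and 16.1 CPM with AMG900, a 1.57-fold drop (-0.65, SE 0.09, adjusted p = 0.00023).

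MCM3 and MCM7 passed by a small margin. MCM3 was at 101, 96.1 and 96.9 CPM with DMSO and at 81.9, 83.0 and 83.8 CPM with AMG900, a log2 fold change of -0.24 (SE 0.05, adjusted p = 0.0029 by the edgeR test). MCM7 was at 484, 455 and 462 CPM with DMSO and at 401, 406 and 399 CPM with AMG900, a change of -0.22 (SE 0.05, adjusted p = 0.0036). The groups do not overlap in either gene. Both calls were lost, leaving 3 MCM genes called, with the replicate number as a block (adjusted p = 0.011 for MCM3 and 0.012 for MCM7) and when DMSO replicate 3 or any 1 AMG900 library was left out.

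MCM4 and MCM5 did not pass the test in H1792. MCM4 was at 125, 129 and 131 CPM with DMSO and at 126, 125 and 125 CPM with AMG900. The values overlap, and the log2 fold change of -0.04 had a 95% confidence interval of -0.14 to 0.07. MCM5 was at 158, 144 and 155 CPM with DMSO and at 142, 139 and 141 CPM with AMG900, a log2 fold change of -0.12 (95% confidence interval -0.24 to 0.00, adjusted p = 0.089).

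MCM8 and MCM9 did not pass either. MCM8 was at 10.5, 10.7 and 11.6 CPM with DMSO and at 8.76, 10.3 and 9.87 CPM with AMG900, a log2 fold change of -0.18 (SE 0.10, adjusted p = 0.13). MCM9 was at 2.14, 3.14 and 2.48 CPM with DMSO and at 1.58, 1.52 and 1.82 CPM with AMG900, a change of -0.65 (SE 0.19). The MCM9 groups do not overlap, but at 76 to 153 counts per library its error is wide and its adjusted p was 0.016. MCM9 passed with DESeq2 (adjusted p = 0.0087) and without DMSO replicate 1 (-0.80, adjusted p = 0.0032).

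**Figure D2:**
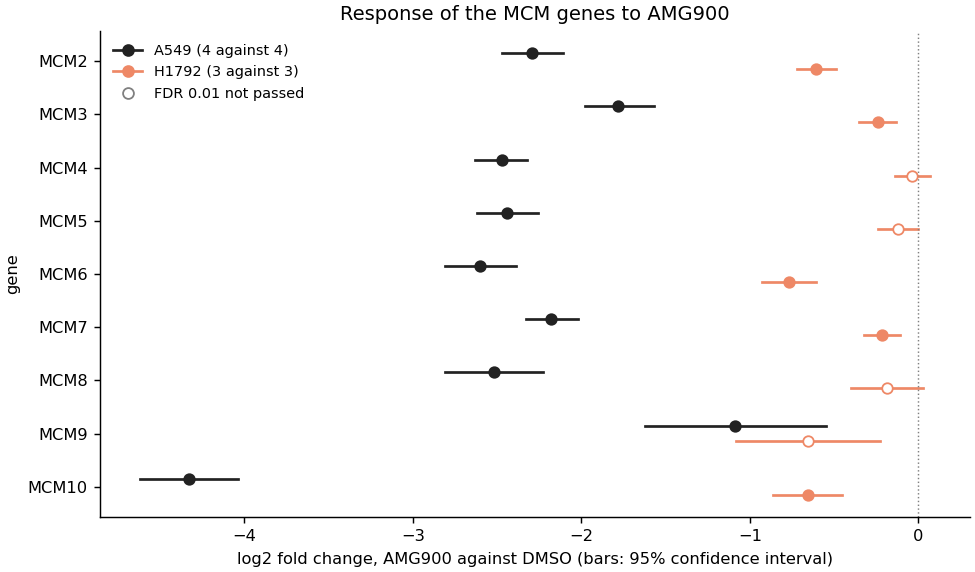
Log2 fold change of each MCM gene with AMG900 against DMSO in A549 (black) and H1792 (orange), with 95% confidence intervals as bars and open points for genes that did not pass an FDR of 0.01. The A549 points run from -4.33 (MCM10) to -1.09 (MCM9), and the H1792 points from -0.77 (MCM6) to -0.04 (MCM4).

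The fold changes moved with the base composition of the transcripts in both lines. Across the genes tested, Spearman's rho between log2 fold change and transcript GC content was 0.487 in A549 and 0.47 in H1792, as a description over genes that share libraries. The MCM transcripts span this range, from 37.57% GC for MCM9 and 41.99% for MCM8 to 56.99% for MCM5, 57.37% for MCM2 and 57.57% for MCM7. With a correction for GC content the ring's median in H1792 was -0.44. MCM2 was then at -0.88, MCM7 at -0.49 and MCM3 at -0.37 in H1792, and MCM5 passed at -0.38 (adjusted p = 3.3e-05 by the edgeR test). MCM8 turned to 0.04 and MCM9 to -0.18, neither passing. In A549 the same correction gave a ring median of -2.46 and another order within the ring, with MCM5 at -2.74, MCM2 at -2.61, MCM7 at -2.50, MCM4 at -2.43, MCM6 at -2.37 and MCM3 at -1.89. What produced the trend with GC content was not tested.

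**Figure D3:**
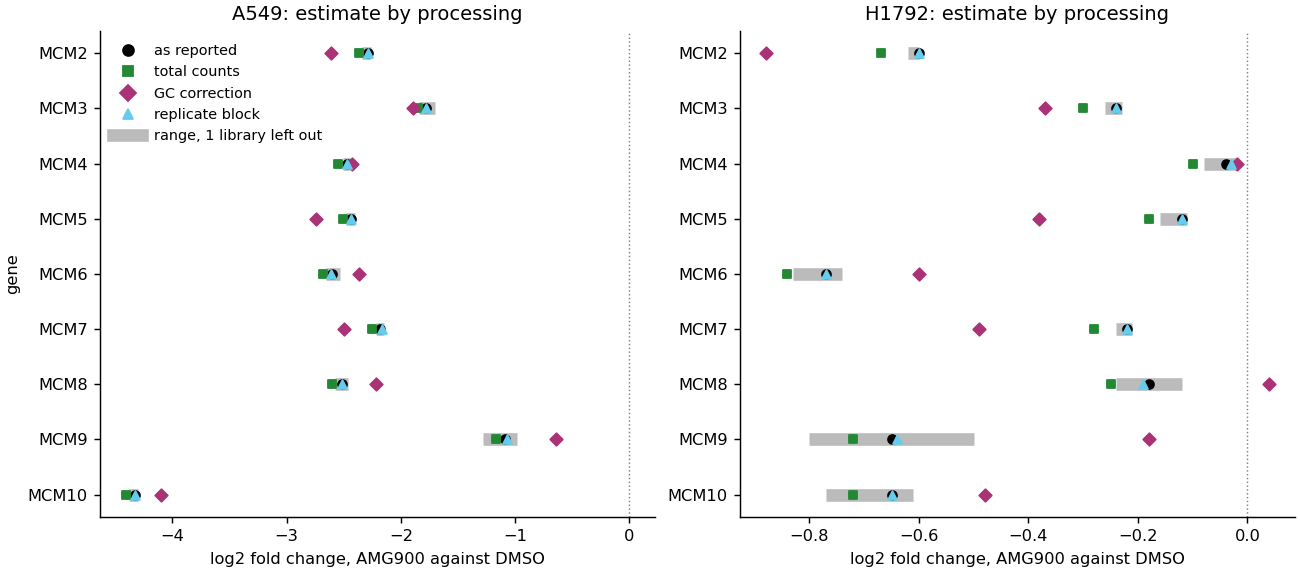
Log2 fold change of each MCM gene as reported (black circles), with total-count scaling (green squares), with the GC correction (purple diamonds) and with the replicate block (blue triangles), and the range with 1 library left out in grey. The 2 panels have different axis ranges. In A549 every estimate is below 0, and in H1792 the GC correction moves MCM2, MCM5 and MCM7 down and MCM8 and MCM9 towards or past 0.

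The difference between the lines was tested itself, by the line-by-treatment interaction over all 14 libraries fitted jointly. The drop was smaller in H1792 for 8 of the 9 MCM genes, a direction called for 5.37% of the 14769 genes tested, while 9.17% were called in the other direction. With the DESeq2 size factors the split over all genes was 1012 in the direction of the MCM genes and 1033 in the other, in place of 793 and 1355. The difference in log2 fold change, H1792 minus A549, was largest for MCM10 at 3.61 (SE 0.17, adjusted p = 5.6e-12 by the edgeR test). In the ring it was 2.36 for MCM4, 2.24 for MCM5, 1.88 for MCM7, 1.76 for MCM6, 1.61 for MCM2 and 1.46 for MCM3, and for MCM8 it was 2.26. For MCM9 it was 0.37, with a 95% confidence interval of -0.33 to 1.06 (adjusted p = 0.46), so a difference between the lines was not shown for MCM9 at its low counts. For this difference, rho with GC content was -0.077 over all genes. Cell line, culture medium and count table go together here and cannot be told apart.

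With DMSO alone the lines did not express the family alike. In DMSO, 6 MCM genes were lower in H1792 than in A549 and 2 were higher, where 31.9% of the genes tested were called lower and 34.2% higher. MCM4 (-1.19, SE 0.07), MCM8 (-1.21, SE 0.12) and MCM9 (-1.19, SE 0.23) were each more than 2-fold lower in H1792. MCM6 (-0.62), MCM3 (-0.60) and MCM10 (-0.46) were lower by less. MCM5 (0.35, SE 0.07) and MCM7 (0.45, SE 0.06) were higher in H1792, and MCM2 did not pass (-0.15, adjusted p = 0.052 by the edgeR test). The MCM10 call was lost without H1792 DMSO replicate 1 (-0.31, adjusted p = 0.012) and with the GC and length correction (-0.25, adjusted p = 0.012), and the calls of MCM9 (-0.88, adjusted p = 0.073) and MCM10 (-0.47, adjusted p = 0.049) were lost with the replicate block. MCM2 passed as lower with total-count scaling (-0.26) and with the GC correction (-0.25).

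Levels were set side by side per kilobase of merged exons, in CPM scaled over both lines, since longer transcripts collect more reads. In A549 with DMSO the order was MCM7 at 70.3 ± 5.59 (SD, n = 4), MCM3 at 41.4 ± 3.94, MCM2 at 30.4 ± 1.61, MCM4 at 30.3 ± 2.21, MCM6 at 22.2 ± 1.27 and MCM5 at 16.8 ± 0.733, followed by MCM10 at 6.51 ± 0.395, MCM8 at 3.39 ± 0.338 and MCM9 at 0.466 ± 0.137. MCM2 and MCM4 did not differ beyond their spread, and every other pair of neighbours did. With AMG900 the order of the ring by merged exons was kept, from MCM7 at 16.5 ± 0.675 (SD, n = 4) to MCM5 at 3.27 ± 0.275. MCM8 (0.618 ± 0.0591) now stood above MCM10 (0.343 ± 0.0251). MCM6 and MCM5 did not differ beyond their spread there (3.39 to 4.31 and 3 to 3.62).

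In H1792 with DMSO, MCM7 stood further from the rest, at 96.4 ± 3.28 (SD, n = 3), followed by MCM3 at 27.5 ± 0.695, MCM2 at 27.3 ± 0.611, MCM5 at 21.5 ± 1.02, MCM6 at 14.5 ± 0.727 and MCM4 at 13.3 ± 0.321. MCM3 and MCM2 did not differ beyond their spread. MCM10 (4.75 ± 0.527), MCM8 (1.46 ± 0.0779) and MCM9 (0.212 ± 0.0413) came last, as in A549. With AMG900, MCM5 (19.8 ± 0.193) stood above MCM2 (18 ± 0.234) and MCM4 (13 ± 0.0313) above MCM6 (8.54 ± 0.640). With the length of the longest transcript in place of merged exons, MCM7 was still first and MCM10, MCM8 and MCM9 last in DMSO, but the order among the other 5 changed: MCM4 moved to place 2 in A549 with DMSO, and MCM2 to place 2 and MCM5 to place 3 in H1792 with DMSO. By that length the A549 order of means was not kept with AMG900. MCM4 stood above MCM3 on average with DMSO (54.9 ± 4 and 47 ± 4.48, SD, n = 4), but their ranges overlapped (49.5 to 58 and 41 to 51.7). With AMG900 MCM4 was below MCM3 (10.5 ± 0.379 and 14.6 ± 1.73), and the ranges did not overlap. MCM6 had the lowest mean of the ring in both A549 groups, with a range that overlapped that of MCM5. In H1792, MCM4 stood above MCM6 with DMSO too.

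The ring takes 1 copy of each subunit, so the share of each gene in the summed level per kilobase of MCM2 to MCM7 was followed, as a description. In A549 the sum went from 211 ± 12.1 (SD, n = 4) to 48.8 ± 2.16 (SD, n = 4). The MCM3 share was at 18.5% to 20.3% with DMSO and at 23.9% to 29.0% with AMG900. The shares of MCM4 (14% to 14.7%, then 11.5% to 12.1%), MCM5 (7.58% to 8.65%, then 6.26% to 7.28%) and MCM6 (10.1% to 11%, then 6.82% to 8.59%) were lower in every AMG900 library, and those of MCM2 and MCM7 overlapped. The shares carry no GC correction. With it the log2 fold changes of MCM4 (-2.43) and MCM6 (-2.37) in A549 were no lower than the ring's median of -2.46. The lower shares of MCM4 and MCM6 were therefore not shown to hold with it. In H1792 the sum went from 201 ± 4.51 (SD, n = 3) to 166 ± 0.951 (SD, n = 3), and no share overlapped between the groups. MCM2 (13.6% to 10.8% on average) and MCM6 (7.25% to 5.15%) took less, and MCM7 (48.1% to 50.1%), MCM5 (10.7% to 12.0%), MCM4 (6.66% to 7.86%) and MCM3 (13.7% to 14.1%) took more. Shares are parts of the same sum, so lower shares of some subunits raise those of others. Separation was also common among the levels of all genes tested. In H1792, 29.6% lay below every DMSO library and 30.1% above, and in A549 22% and 21.9%. With the GC correction the log2 fold change of MCM7 in H1792 was -0.49, beside a ring median of -0.44, so its higher share was not shown to hold either. By merged exons, the most abundant subunit was 4.19 times the least abundant in A549 with DMSO and 5.14 times with AMG900. In H1792 it was 7.24 times with DMSO and 9.77 times with AMG900. These ratios depend on the length used. By the longest transcript, MCM7 had the highest mean and MCM6 the lowest mean of the ring in every group. They were at 113 and 24.5 in A549 with DMSO and at 26.5 and 4.26 with AMG900. In H1792 they were at 155 and 16 with DMSO and at 134 and 9.41 with AMG900.

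**Figure D4:**
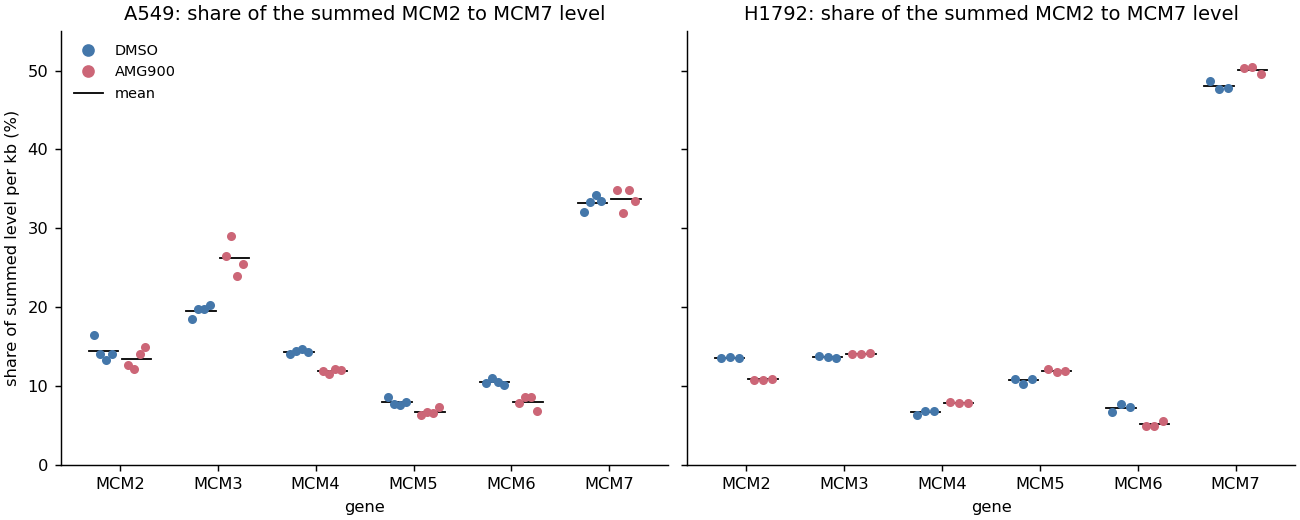
Share of each ring subunit in the summed level per kilobase of MCM2 to MCM7 in every library, in percent, with DMSO in blue, AMG900 in red and a bar at the mean. MCM7 holds 32.1% to 34.2% in A549 with DMSO and 47.7% to 48.7% in H1792 with DMSO, and MCM3 rises above its DMSO range in A549.

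Several MCM genes share a start region with a gene on the other strand, in GRCh37 coordinates. MCM4 (chromosome 8, 48872745 to 48890720, plus strand) starts 7 bases from PRKDC, the catalytic subunit of the DNA-dependent protein kinase. PRKDC fell in both lines, from 278 ± 12.3 to 149 ± 4.65 CPM (SD, n = 4) in A549 (log2 fold change -0.89, SE 0.06) and from 226 ± 14.1 to 129 ± 6.77 CPM (SD, n = 3) in H1792 (-0.81, SE 0.06). Its difference between the lines was 0.01 (SE 0.09), beside 2.36 for MCM4, and in H1792 PRKDC fell while MCM4 did not pass. MCM2 (chromosome 3, 127317253 to 127341279, plus strand) starts 143 bases from TPRA1, a membrane protein gene, which moved the other way. TPRA1 rose from 83.8 ± 8.28 to 158 ± 12.8 CPM (SD, n = 4) in A549 (0.91, SE 0.09) and from 64.4 ± 3.61 to 80.7 ± 4.78 CPM (SD, n = 3) in H1792 (0.32, SE 0.07), and the H1792 call was lost with the GC correction (0.09, adjusted p = 0.18) and without DMSO replicate 3, AMG900 replicate 2 or AMG900 replicate 3. AP4M1, 391 bases from MCM7 (chromosome 7, 99689856 to 99699563, minus strand), did not pass in A549 (0.24, adjusted p = 0.13 by the edgeR test) or in H1792 (-0.08, adjusted p = 0.54). TRMT6, a tRNA methyltransferase gene 94 bases from MCM8 (chromosome 20, 5931298 to 5979623, plus strand), did not pass in A549 (-0.13, adjusted p = 0.54) or H1792 (0.16, adjusted p = 0.29). MCM7 overlaps AP4M1, MCM8 overlaps MCM8-AS1 and MCM9 overlaps ASF1A on the opposite strand, and MIR25, MIR93 and MIR106B lie within MCM7. The strand setting of the counting is not given in the sources used here, so reads of such overlaps cannot be assigned with certainty.

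Loading of the ring needs the origin recognition complex, CDC6 and CDT1. The list of 10 licensing genes holds these and also GMNN and MCMBP, which are not loading factors. In A549, 7 of the 10 were downregulated and 0 upregulated (median log2 fold change -1.24), where 17.8% of all genes tested were called lower and 17.2% higher. The lowest were ORC1 (-4.11, SE 0.18), the largest subunit of the origin complex, and the loader CDC6 (-3.28, SE 0.11). In H1792, 6 of 10 were downregulated and 0 upregulated (median -0.34), where 18.8% of all genes tested were called lower and 16.2% higher, led by the origin complex subunits ORC5 (-1.20, SE 0.20) and ORC2 (-1.12, SE 0.17), while CDC6 did not pass at -0.10, as MCM4 and MCM5 did not.

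Activation of the ring joins it to CDC45 and the GINS complex. In A549, 12 of the 13 activation genes tested were downregulated (median -2.10, with 17.8% of all genes called lower), led by CDC45 (-3.67, SE 0.21) and TICRR (-3.50, SE 0.15), which brings CDC45 to the ring. This median was close to that of the MCM ring itself. In H1792, 7 of 14 were downregulated and 1 upregulated (median -0.30, with 18.8% of all genes called lower and 16.2% higher). The lowest were MTBP (-1.27, SE 0.23), a partner of TICRR, and WDHD1 (-1.20, SE 0.15), which links the helicase to DNA polymerase alpha, and DBF4B, an activator of the kinase CDC7, rose (0.40, SE 0.07). With the GC correction MTBP (-0.71, adjusted p = 0.019 by the edgeR test) and DBF4B (0.17, adjusted p = 0.073) no longer passed.

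At the fork the ring travels with polymerases, primase, the sliding clamp and its loader. In A549, 17 of 18 fork genes were downregulated and 0 upregulated (median -1.80), where 17.8% of all genes tested were called lower. POLE2, a subunit of DNA polymerase epsilon, had 8 to 23 counts in the DMSO libraries and 0 in all 4 AMG900 libraries, which is at least 7.38-fold lower against a floor of 3 counts per library, and the median of the list is -1.80 with POLE2 at that bound too. CLSPN, the checkpoint mediator claspin, was at -3.41 (SE 0.15). In H1792, 9 of 18 were downregulated and 0 upregulated (median -0.30, with 18.8% of all genes called lower), led by the clamp loader subunits RFC3 (-1.24, SE 0.14) and RFC4 (-0.86, SE 0.09).

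Genes for taking the ring off chromatin were called in both directions, in counts too small to set the list apart from all genes tested. In A549, 3 of 9 were downregulated and 1 upregulated (median -0.25), where 17.8% of all genes tested were called lower and 17.2% higher. The ubiquitin ligase genes TRAIP (-2.34, SE 0.18) and LRR1 (-1.88, SE 0.18) fell and TCEB2, elongin B, rose (0.60, SE 0.11, lost with the GC correction at 0.40). In H1792, 3 were downregulated and 2 upregulated (median 0.04), against 18.8% and 16.2% of all genes tested, with LRR1 (-0.73, SE 0.10) and the segregase VCP (-0.27, SE 0.05) lower and TCEB2 (0.36, SE 0.07) and UFD1L (0.31, SE 0.06), a VCP cofactor, higher. The last 3 did not hold in every leave-out: VCP was lost without AMG900 replicate 1 or 2, and TCEB2 and UFD1L without those or DMSO replicate 3. TCEB2 was also lost with the GC correction (0.16) and UFD1L with total-count scaling (0.24).

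The recombination partners of MCM8 and MCM9 were all downregulated in A549, 8 of 8 where 17.8% of all genes tested were called lower (median log2 fold change -1.30), a lower median than that of all genes tested (-0.01) and a smaller drop than that of MCM8 itself (-2.52). In H1792, 2 of 8 were downregulated and 0 upregulated (median -0.15), close to the 18.8% of all genes called lower, and neither call held with every library left out in turn.

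Genes of the G1/S switch, which includes the E2F factors, fell in part. The list mixes genes that drive the switch with genes that hold it back. In A549, 14 of 22 were downregulated and 1 upregulated (median -0.76), where 17.8% of all genes tested were called lower and 17.2% higher. The lowest were E2F8 (-4.70, SE 0.56) and E2F2 (-4.56, SE 0.27), and CDKN1A, the cyclin-dependent kinase inhibitor p21, rose (1.73, SE 0.07). In H1792, 12 of 23 were downregulated and 1 upregulated (median -0.37, with 18.8% and 16.2% of all genes called), with RB1 (-1.57, SE 0.24), the retinoblastoma gene, and CDK2 (-0.85, SE 0.06) lowest and CDKN1A again higher (0.60, SE 0.06). The change of CDKN1A was larger in A549, with a difference between the lines of -1.21 (SE 0.09, adjusted p = 1.2e-08 by the edgeR test).

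**Figure D5:**
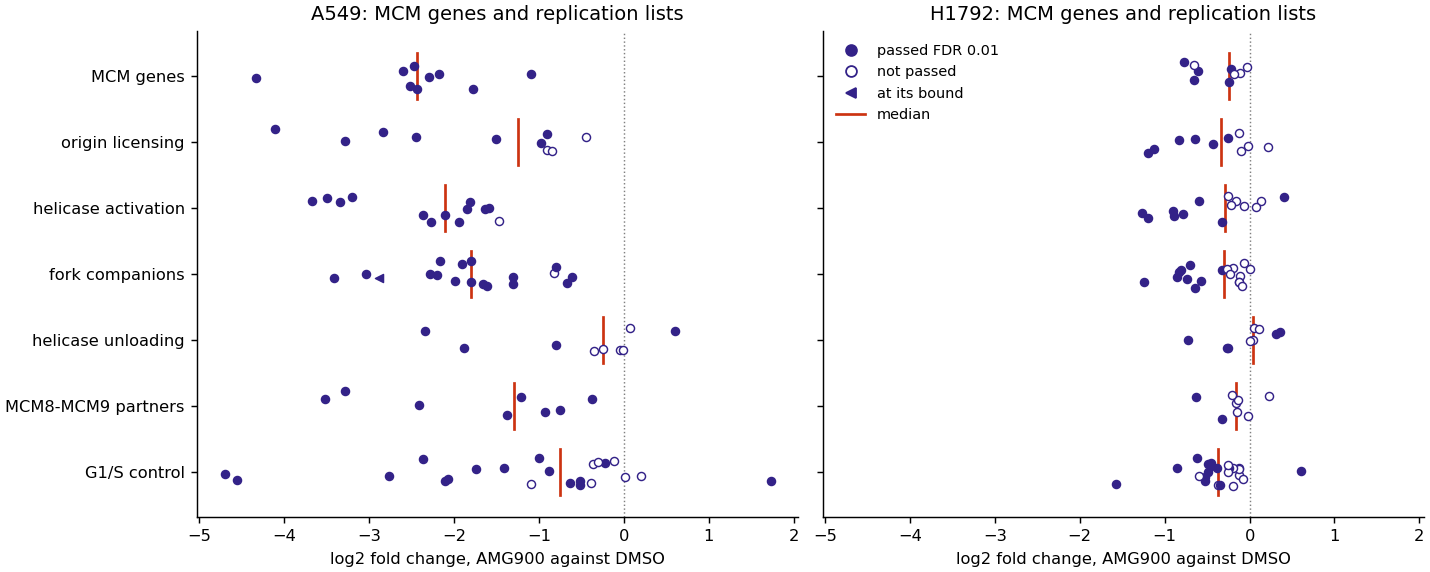
Log2 fold change with AMG900 against DMSO of the MCM genes and of 6 lists of related genes in each line, with filled points for genes that passed an FDR of 0.01, a triangle for POLE2 at its bound and a red bar at the median. In A549 the MCM genes have the lowest median (-2.44), and in H1792 the medians of all lists lie between -0.37 and 0.04.

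The genes most like the ring across libraries were named by the Pearson correlation of log2 CPM with the mean of MCM2 to MCM7. In A549, over 8 libraries and 8843 genes with a mean of at least 100 counts, they were KIF22 (r = 0.9995, log2 fold change -2.25), WDR62 (0.9988, -3.00), TRIP13 (0.9984, -2.52), ESPL1 (0.9983, -3.10) and RRM2 (0.9982, -3.87). KIF22 encodes a chromosome-binding kinesin, ESPL1 separase, and RRM2 a subunit of ribonucleotide reductase. In H1792, over 6 libraries and 11556 genes, they were RMND5A (0.9999, -0.76), HMGN2 (0.9992, -0.63), PGRMC1 (0.9992, -0.46), CD46 (0.9989, -1.36) and TIMELESS (0.9989, -0.33), a fork protection gene. The libraries share the gap between treatments, and 7.09% of genes in A549 and 12.9% in H1792 exceeded 0.95. Among the MCM genes, with ring members part of that mean, MCM4 (r = 0.628) and MCM8 (0.756) were lowest in H1792 and MCM9 (0.822) in A549.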

How the data were processed

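Total RNA (RNeasy) of 14 cultures was sequenced on an Illumina instrument. The authors deposited raw read counts per gene symbol, 1 table per line. The submitters' processing notes name STAR, HTSeq, hg19 and GRCh37, and versions, annotation and strand setting are not given in the sources used here. In the H1792 table, 28 entries named as calendar dates (0.101% to 0.117% of a library's counts) were left out. The MCM genes and the lists were chosen with earlier results of these data known.

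Counts were analysed in R 4.3.3 with edgeR 4.0.16: filterByExpr, TMM scaling and the quasi-likelihood F test, with Benjamini-Hochberg adjustment over all genes tested and an FDR threshold of 0.01, in each line alone and jointly for the difference between lines. The study's own tool, DESeq2, was an alternative here (version 1.42.0). The biological coefficient of variation over all genes tested was 12.8% in A549 and 9.6% in H1792. Log2 CPM used a prior count of 2. GC content and lengths came from GENCODE v44lift37, and the GC correction was a spline with 5 degrees of freedom per library. The fit was also run on simulated counts with few changed genes and no GC trend, unlike these data, so that run does not test the calls reported. Alternatives were DESeq2, its size factors, total counts, no low-count filter, a filter of at least 10 counts in every library, a block for replicate number, GC and length corrections, an FDR of 0.05, a 2-fold minimum, and each library left out. The text names the MCM genes, up to 2 genes per list, line and direction, genes starting within 1000 bases on the opposite strand, and the 5 genes most like the ring in each line. CDC6 in H1792 was named after its value was seen, and GMNN and MCMBP are named only as members of the licensing list. Some genes that this rule would name are not reported here.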

Additional observations from a re-analysis of the deposited data

Results flagged for a closer look

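The difference between the lines, H1792 minus A549, passed the edgeR test of the interaction for 8 MCM genes, with log2 differences of 1.61 for MCM2, 1.46 for MCM3, 2.36 for MCM4, 2.24 for MCM5, 1.76 for MCM6, 1.88 for MCM7, 2.26 for MCM8 and 3.61 for MCM10.

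In A549 with AMG900, 1 library stood apart from the other 3 for 2 genes by Dixon's test: MCM9 in replicate 3, at 3.94 CPM, and MCM10 in replicate 1, at 2.08 CPM. These were 2 of the 18 groups of 4 libraries tested, and chance alone gives about 1 such case in 20 groups.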

How the results depend on the processing

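The A549 drop kept its direction for all 9 MCM genes under every alternative run, with 8 or 9 genes called with 1 library left out. In H1792 the number of MCM genes called lower was 5, but 3 with the replicate block, 0 with a 2-fold minimum, and 3 to 6 with 1 library left out. Between the lines with DMSO, the 2-fold minimum left 3 MCM genes lower and 0 higher in H1792. The difference between the lines was called for 8 MCM genes with 1 library left out, whichever it was, and under the other alternatives as well. Replicate numbers did not pair the libraries (correlations of same-numbered libraries -0.0391 to 0.0126 in A549 and -0.0604 to 0.0425 in H1792), so the block is an alternative only, and beyond the H1792 calls of MCM3 and MCM7, 1 call among the recombination partners and the DMSO calls of MCM9 and MCM10 it changed no other call among the MCM genes and the genes chosen by the naming rule.

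Directions turned for some genes near 0. In H1792, MCM8 was at 0.04 with the GC correction and at 0.08 with GC and length, where MCM4 was at 0.04. In A549, AP4M1 was at -0.12 and -0.1 and TRMT6 at 0.2 and 0.17 under those corrections, and in H1792 without DMSO replicate 1 they were at 0.01 and -0.01 (ranges with 1 library left out -0.15 to 0.01 and -0.01 to 0.24). The cause was not tested. Total-count scaling moved the median of all genes between the lines with DMSO from 0.038 to -0.068 log2 units.

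Over all genes, a 2-fold minimum left 769 lower and 695 higher in A549 (2340 and 2265 without it), 781 and 476 in H1792 (2827 and 2439), 516 and 395 for the difference between lines (1355 and 793), and 2810 and 2973 with DMSO (4712 and 5050). An FDR of 0.05 gave 3689 higher in H1792 and 2297 and 1319 for the difference, where DESeq2 called 1416 higher. With 1 library left out, H1792 had 1853 to 3656 lower and 1382 to 3047 higher. Depth limits MCM9 most, at 15 to 112 counts in A549 with DMSO.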
